A study of Homo sapiens with 4 samples.

Results

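Small RNA counts over histidine tRNA genes were examined in small extracellular vesicles, particles enclosed by a membrane and shed by cells. The vesicles came from the established human colon cancer line HT29. The counts lie on 4 features of the count table, each an annotated RNA with its own count. Each feature is longer than its tRNA gene, and whether its reads lay in that gene is not recorded. These are the 4 of 155642 features whose identifiers were listed for lying over the genes TRH-GTG1-5, TRH-GTG1-7, TRH-GTG1-8 and TRH-GTG1-9. Each feature is called here by its tRNA gene. They were chosen by identifier with their counts in these 4 libraries, and so the group difference in them, already known. Their levels and group differences are therefore given as a description, and the list as such was not tested.

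The 4 libraries came from 2 groups of HT29 cells at passages 5 to 15. The control group carried a non-targeting shRNA (2 libraries), and the other group (2 libraries) carried an shRNA directed at the transcription factor p53. Which form of p53 this cancer line makes was not examined here. The labels name no other treatment and leave unsaid whether replicate libraries stem from separate cultures and whether a line was a single clone. P-values thus reflect the spread among these samples only, and that spread may be technical. Insert sizes of 18 to 40 nt were selected, so that a tRNA would be seen as fragments and not whole. Fewer vesicles with a fragment and less of it per vesicle cannot be told apart in pooled RNA.

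Library totals were 1099694 and 938754 counts for control replicates 1 and 2, against 2611032 and 1940942 for the p53 shRNA replicates, and between 53.2% and 59.9% of them lay on features over ribosomal RNA genes. Neither the labelled knockdown nor features of cell type markers were analysed here.

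Transfer RNAs carry amino acids to the ribosome and read the codon with their anticodon, which is GTG in the histidine genes (GUG in the RNA). RNA polymerase III transcribes them from promoter elements inside the gene, the A box and the B box. Histidine tRNA is set apart from other tRNAs by an extra guanosine at its 5′ end, which THG1L adds and the histidyl-tRNA synthetase HARS1 recognises. Nucleases such as angiogenin (ANG) cut mature tRNAs into fragments, which are a common small RNA of extracellular vesicles.

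The copies are shown first because their sequence limits what a count on any single one can mean. TRH-GTG1-7 lies at chr15:45198606-45198677 on the minus strand (GRCh38), and its 72 bases read as follows, with the anticodon at positions 34 to 36 from the 5′ end in capitals.
TRH-GTG1-7: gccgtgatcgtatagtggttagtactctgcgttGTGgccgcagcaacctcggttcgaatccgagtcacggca
The sequence was read from the GENCODE 29 transcript of AC051619.7. TRH-GTG1-8, from the GENCODE 29 transcript of AC051619.8, and TRH-GTG1-9, from the RefSeq promoter window of SHF (GRCh38.p14), had the same base at all 72 positions. The same 72 bases were found for TRH-GTG1-3 on chromosome 1, which has no feature in the count table. The sequence of TRH-GTG1-5 was not available here, so whether it is the same was not checked.

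The copies differed outside the gene. The 20 bases that follow it are given below, with bases that differ from TRH-GTG1-7 in capitals.
TRH-GTG1-7: ttgtgggaacaatggcacgg
TRH-GTG1-8: ttgtgAgGacaatggcacgg
TRH-GTG1-9: ttgtggAaacaatggTacgg
TRH-GTG1-3: AtgtCgTTaGTCtAgGCTgT
TRH-GTG1-8 and TRH-GTG1-9 each shared 18 of the 20 bases with TRH-GTG1-7, and TRH-GTG1-3 shared 8. A fragment of 18 to 40 nt from within the gene is therefore the same from each of these copies, while one that runs past the end of the gene can differ. The bases before the gene were not compared. The sources used here do not state how the alignment placed reads with several equal matches.

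The letters GGTTCGA, the core of the B box, were found at positions 51 to 57 of each of the 4 gene sequences. Searched on both strands, they occurred in 302 of 35116 RefSeq promoter windows of 300 bases (0.86%). This window set contains the SHF and LINC01731 windows that hold TRH-GTG1-9 and TRH-GTG1-3. Of the 55 stretches of 18 bases in the gene, all 55 were found in AC051619.7 and AC051619.8, and 8 in the opposite sense in SHF. No other gene among the 206694 GENCODE 29 transcripts searched held any of them.

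The TRH-GTG1-5 feature (URS0000D57591_9606) spans chr6:27158110-27158455, 346 bases on the plus strand, with the gene at 27158127 to 27158198. No GENCODE 29 gene covers this tRNA gene, and the nearest, MIR3143, is 10439 bases away. The other 3 genes lie within 2617 bases on chromosome 15, at the 5′ end of SHF, an adaptor protein gene. The TRH-GTG1-7 feature (URS00001F0C03_9606, chr15:45198517-45199139, 623 bases, minus strand) is AC051619.7, and the TRH-GTG1-8 feature (URS000006E1E3_9606, chr15:45200325-45200632, 308 bases, minus strand) is AC051619.8. Both are typed sense-intronic RNA of SHF in GENCODE 29, and their tRNA genes lie in no exon of SHF. All 72 bases of TRH-GTG1-7 also lie within AC051619.4, a gene typed antisense on the plus strand. The TRH-GTG1-9 feature (URS0000D58788_9606, chr15:45200656-45201684, 1029 bases, plus strand) holds its gene at 45201151 to 45201222, and 25 bases of that gene face the first exon of SHF, a UTR, on the other strand.

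All 4 features are typed as long non-coding RNA in the deposited annotation, and 0 other features overlapped any of them, so that their counts did not compete with another feature. Sense and antisense reads were not compared here, and whether the counting told them apart was not examined. RefSeq lists 9 histidine tRNA genes, and the other 5 (TRH-GTG1-1 to TRH-GTG1-4 on chromosome 1 and TRH-GTG1-6 on chromosome 9) are covered by no feature of the count table. Reads placed at those genes are not in any count given here.

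**Figure D1:**
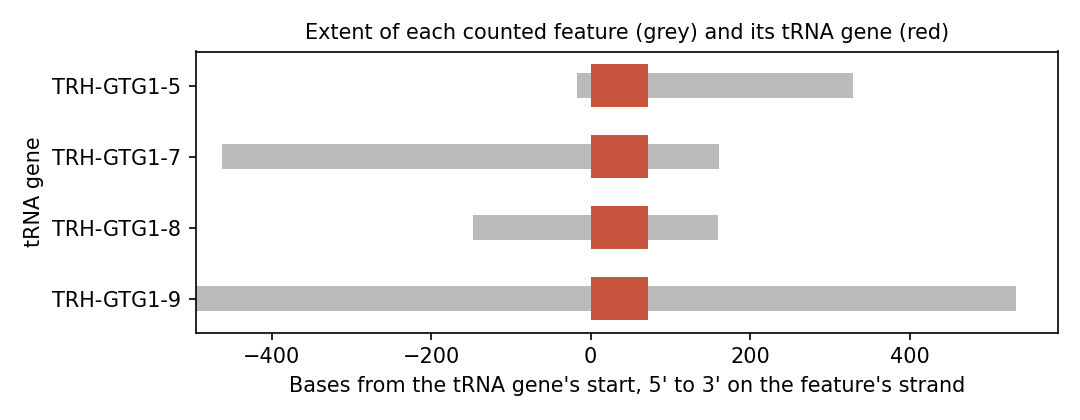
Extent of the 4 counted features (grey) around the 72-base tRNA gene (red), in bases from the start of the gene along the strand of the feature. The features run from 308 to 1029 bases, and each contains its tRNA gene whole, with 17 to 495 bases before it and 88 to 462 after it.

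The features over histidine tRNA genes were lower in both p53 shRNA libraries than in both controls, by about the same factor at each copy. Together they held 3657 counts in control replicate 1 and 2768 in replicate 2, against 1565 in p53 shRNA replicate 1 and 486 in replicate 2. As a share of all counts of a library this was 0.333% (95% Wilson interval 0.322% to 0.343%) and 0.295% (0.284% to 0.306%) in the controls. With p53 shRNA it was 0.0599% (0.0570% to 0.0630%) and 0.0250% (0.0229% to 0.0274%). The intervals cover counting error only, since reads without molecular identifiers are not independent molecules. The groups did not overlap, although the p53 shRNA libraries were the deeper ones.

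The mean share was 0.314% ± 0.0266 for control and 0.0425% ± 0.0247 for p53 shRNA (SD, n = 2), a 7.38-fold difference. The lower control stood 4.92-fold above the higher p53 shRNA library. As shares of all counts, the controls differed from each other 1.13-fold and the p53 shRNA libraries 2.39-fold. The gap between the groups was thus wider than the spread within either. Among features with any count, the 4 ranked between 36 and 52 in the controls. They ranked between 135 and 201 in p53 shRNA replicate 1 and between 308 and 504 in replicate 2.

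TRH-GTG1-5, the copy on chromosome 6, had the highest count in every library. The control replicates gave 1093 and 905 counts, against 503 and 158 for the p53 shRNA replicates. As CPM, that is counts per 1000000 counts of the TMM-scaled library size, the controls stood at 1612 and 896 and the p53 shRNA libraries at 180 and 67.8. The mean level was thus 1254 ± 506 CPM against 124 ± 79.2 CPM (SD, n = 2), a log2 change of −3.34 (SE 0.81). Both controls lay above both p53 shRNA libraries, while the controls were further apart in CPM than as shares of all counts (0.0994% and 0.0964%).

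TRH-GTG1-7 had 864 and 631 control counts, against 361 and 96 for p53 shRNA. Its CPM were 1274 and 625 against 129 and 41.2, and its log2 change was −3.48 (SE 0.96). This was the lowest count of the 4 in p53 shRNA replicate 2, but not in the other libraries.

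TRH-GTG1-8, the shortest feature, had 833 and 608 control counts, against 365 and 109 for p53 shRNA. Its CPM were 1229 and 602 against 130 and 46.7, with a log2 change of −3.37 (SE 0.89). The order of the libraries was the same as for the copies above, with control replicate 1 the highest and p53 shRNA replicate 2 the lowest.

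TRH-GTG1-9, the longest feature, had 867 and 624 control counts, against 336 and 123 for p53 shRNA. Its CPM were 1279 and 618 against 120 and 52.7, with a log2 change of −3.46 (SE 0.78). Here too the groups did not overlap.

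**Figure D2:**
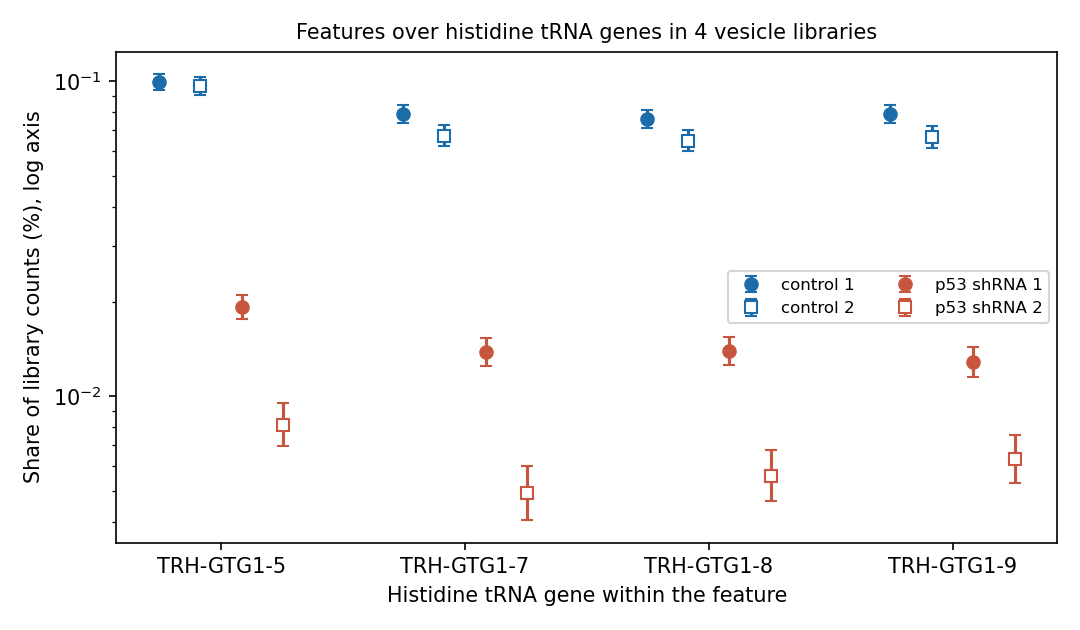
Share of all counts of a library (percent, log axis) held by each feature over a histidine tRNA gene, in the 2 control libraries (blue) and the 2 p53 shRNA libraries (red), with bars for 95% Wilson intervals. The control shares lie between 0.0648% and 0.0994% and the p53 shRNA shares between 0.00495% and 0.0193%, with p53 shRNA replicate 2 lowest at every copy.

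The fit across all 2780 features that passed the filter on low counts, edgeR's quasi-likelihood test with Benjamini-Hochberg adjustment, called 0 features at an adjusted p of 0.05 (0.0%), and the 4 copies were among those not called. Their adjusted p lay between 0.258 and 0.273, and their unadjusted p between 0.0182 and 0.0215. Of all features tested, 7.81% were lower at an unadjusted p under 0.05, and in 18.6% the p53 shRNA libraries both fell under the lower control, as they did for 4 of the 4 copies. A log2 change of −3.34 or lower was found for 3.81% of the features. The median log2 change was −3.41 for the 4 copies and 0.05 for all features tested. As the gene sequence was the same in TRH-GTG1-7, TRH-GTG1-8 and TRH-GTG1-9, these copies do not count as separate observations.

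The DESeq2 Wald test, which called 37 features, 36 of them lower (1.29% of those tested), gave TRH-GTG1-9 an adjusted p of 0.0481 and the other copies values between 0.0514 and 0.0550. The size of the difference depended on single libraries, most on those with p53 shRNA. Without p53 shRNA replicate 2 the log2 changes lay between −2.70 and −2.53, and without p53 shRNA replicate 1 between −4.38 and −4.02. Without control replicate 1 they lay between −3.05 and −2.93, and without control replicate 2 between −3.81 and −3.61. The scale also mattered: on library totals the changes lay between −2.94 and −2.82, where the median of all features was 0.49.

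Copies were next compared with one another within each library, a measure that depends neither on depth nor on the level of the family. TRH-GTG1-5 took 29.9% and 32.7% of the summed control counts of the 4 features, against 32.1% and 32.5% for p53 shRNA, where equal copies would each hold 25%. TRH-GTG1-7 held 23.6% and 22.8%, then 23.1% and 19.8%. TRH-GTG1-8 held 22.8% and 22.0%, then 23.3% and 22.4%. The copies on chromosome 15 were thus close to one another, and the copy on chromosome 6 stood above them in 4 of 4 libraries. How reads matching several copies were placed is not known, so these shares need not reflect the output of each gene.

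TRH-GTG1-9 took 23.7% and 22.5% of the summed control counts, against 21.5% and 25.3% for p53 shRNA. The 95% Wilson interval of TRH-GTG1-5 lay above those of the other copies in 3 libraries. In p53 shRNA replicate 2, the library with the fewest counts, its interval of 28.5% to 36.8% met that of TRH-GTG1-9 (21.6% to 29.4%). The order of the 3 copies on chromosome 15 changed from library to library, and their intervals overlapped in all 4.

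The count of TRH-GTG1-5 was 1.28 and 1.46 times the mean of the chromosome 15 copies for control, against 1.42 and 1.45 times for p53 shRNA. The groups overlapped in this ratio, with means of 1.37 ± 0.126 and 1.43 ± 0.0171 (SD, n = 2). Between the 3 copies on chromosome 15 the highest count was 1.04 times the lowest in both controls, and 1.09 and 1.28 times in p53 shRNA replicates 1 and 2.

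Group differences in the makeup were small beside the spread. The mean share of TRH-GTG1-5 was 1.03 percentage points higher with p53 shRNA, and that of TRH-GTG1-7 fell short of the control by a difference of −1.80 points. For TRH-GTG1-8 and TRH-GTG1-9 the differences were 0.50 and 0.26 points. The groups overlapped for each of the 4 shares, so that no copy stood apart from the rest in how its level differed between the groups.

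**Figure D3:**
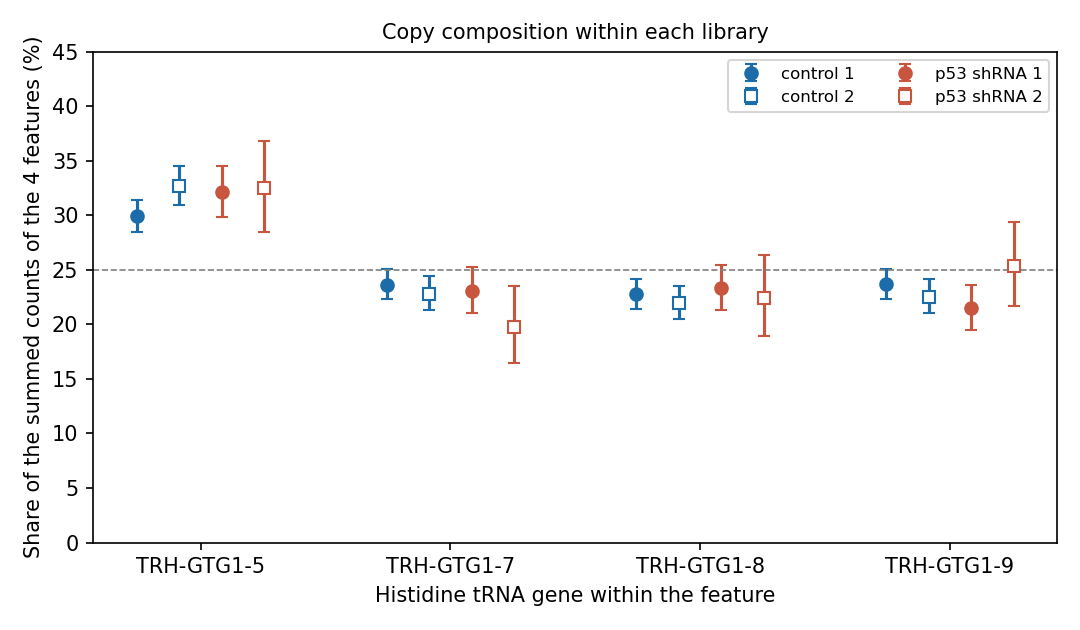
Share of the summed counts of the 4 features (percent) held by each copy in each library, with 95% Wilson intervals as bars and a dashed line at 25%, the share of equal copies. TRH-GTG1-5 lies between 29.9% and 32.7% and the 3 copies on chromosome 15 between 19.8% and 25.3%, in control (blue) and p53 shRNA (red) libraries alike.

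Counts did not follow the length of the features. Per kilobase of feature, control replicate 1 had 3159 counts at TRH-GTG1-5, 2705 at TRH-GTG1-8, 1387 at TRH-GTG1-7 and 843 at TRH-GTG1-9. The feature of 1029 bases thus had the lowest count per kilobase and the one of 346 bases the highest, and p53 shRNA replicate 2 gave the same order (457, 354, 154 and 120). Where within a feature its reads lay is not recorded in the count table.

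Other tRNA genes shared at least 1 base with 158 features, of which 56 had a count and 23 were tested. In all, 78 of the 443 nuclear tRNA genes in RefSeq had a feature. The longest tested feature spanned 14262 bases, so counts on these features need not come from the tRNA gene. Of all counts on features over tRNA genes, the 4 histidine features took 41.8% and 34.6% in the control replicates, against 28.4% and 18.0% for p53 shRNA. The groups did not overlap. The other features together made up 0.510% ± 0.0655 of a control library, against 0.133% ± 0.0259 for p53 shRNA (SD, n = 2), a 3.84-fold difference beside the 7.38-fold difference of the histidine features. That difference between the families was not tested, as the members were chosen with the values known.

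The 3 other tRNA features with the highest mean CPM were lower with p53 shRNA by a similar amount. The feature over the glycine gene TRG-GCC2-6 had 1478 and 1560 control counts, against 796 and 349 for p53 shRNA (log2 change −3.10, SE 0.52). The feature over the valine gene TRV-CAC1-1 and the glutamate gene TRE-TTC4-2 had 1166 and 1746 against 469 and 181 counts (−3.81, SE 0.55). The feature over the lysine gene TRK-CTT2-1 had 1274 and 949 against 334 and 182 counts (−3.84, SE 0.58). By edgeR's quasi-likelihood test their adjusted p lay between 0.187 and 0.273, so none was called.

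Next in level, the features over the lysine gene TRK-TTT3-1 and the isoleucine gene TRI-TAT2-1 differed less. TRK-TTT3-1 had 155 and 196 counts against 231 and 120 (log2 change −1.66, SE 0.35), and TRI-TAT2-1 had 114 and 35 against 409 and 376 (0.60, SE 1.12). Across the 23 tested features of other tRNA genes the median log2 change was −0.96, with a range from −3.84 to 1.34. In 12 of them the p53 shRNA libraries both fell under the lower control, and in 1, over TRX-CAT1-8, both exceeded the higher one. At an unadjusted p under 0.05, 6 were lower and 0 higher. Features over other tRNA genes thus ran from values like those of the histidine copies to 3 features above 0.

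**Figure D4:**
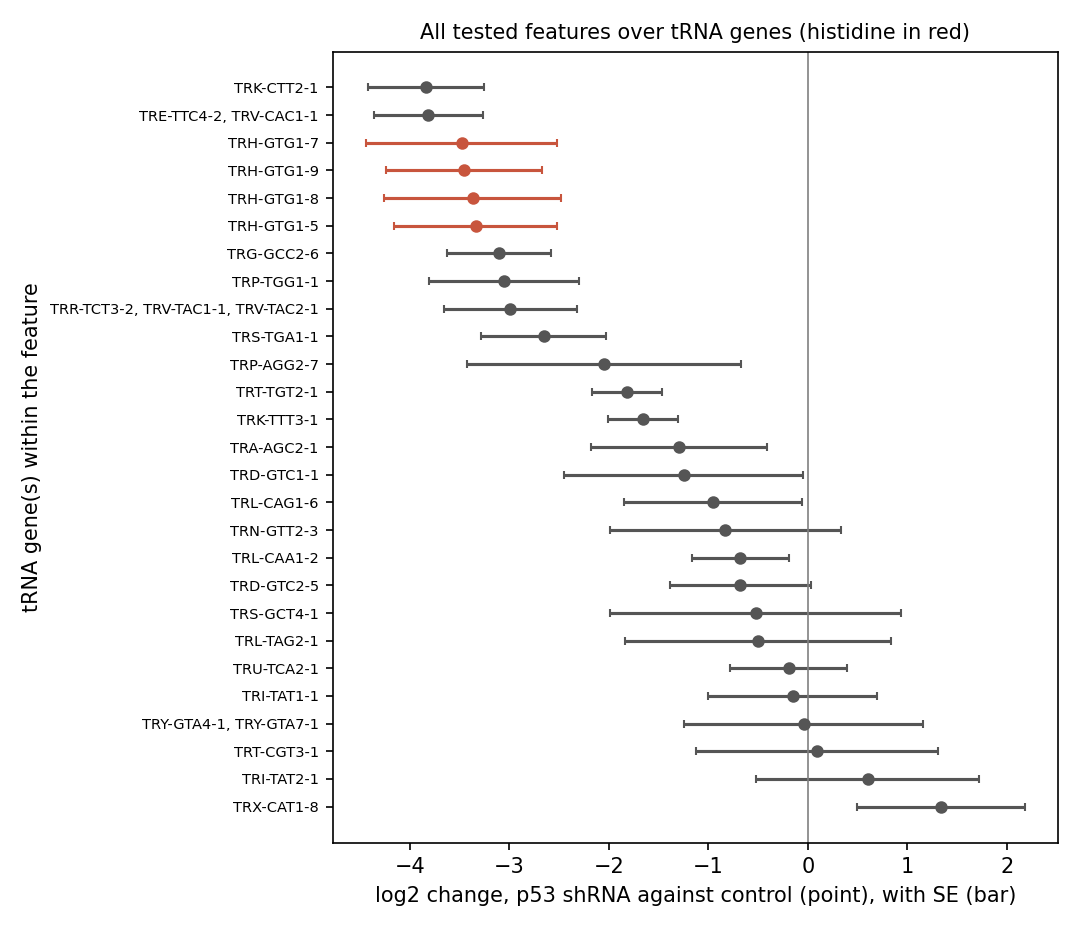
Log2 change with p53 shRNA against control (point) for all 27 tested features over tRNA genes, the 4 over histidine genes in red. Bars give the SE of the group difference in mean log2 CPM. The histidine copies lie between −3.48 and −3.34, next to features over lysine, valine with glutamate, and glycine genes, while the features at the bottom reach 1.34.

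Genes listed around tRNA handling and ribonucleases gave too few counts to compare. Of the 16 listed genes, 10 had a feature in their exons and 7 had a count, and 0 of their 22 features passed the filter on low counts. The features of NSUN2, a tRNA methyltransferase, held 4 and 3 control counts, against 19 and 14 for p53 shRNA. Those of RNH1, the ribonuclease inhibitor, held 8 and 5 against 7 and 5. HARS1 had 1 and 0 against 1 and 0 counts and ANG 2 and 0 against 3 and 0, while THG1L and RMRP had 0 in all 4 libraries. These are fragments at exons in vesicle RNA and do not measure the genes' mRNA in the cells.

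Among features with a gene name by position, those most like the histidine copies over the 4 libraries were Y RNA copies, a snoRNA and a vault RNA. Likeness was the Euclidean distance between log2 CPM profiles over the 4 libraries, each centred on its mean. It was taken for 948 named features with a mean of at least 10 CPM. A prior count of 2 entered the profile of each feature but not that of the summed histidine features. A flat profile lay 3.70 from the summed histidine features, the median feature 4.01, and the histidine copies themselves 0.0694 to 0.190. The nearest was a Y RNA copy that GENCODE 29 names RF00019 (distance 0.0713), with 29 and 20 control counts, against 9 and 1 for p53 shRNA. Such low counts leave its profile uncertain. The prior count raises its lowest library most, so its small distance and first place depend on that prior.

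SNORD67, a box C/D snoRNA, followed at 0.391, with 3440 and 2949 control counts, against 2102 and 483 for p53 shRNA. The vault RNA VTRNA1-2 lay at 0.531 (12668 and 7492 against 7117 and 1750 counts) and the Y RNA RNY3 at 0.537 (129 and 118 against 61 and 26 counts). A second RF00019 copy, with 19 and 16 against 7 and 2 counts, lay at 0.630. In all of them control replicate 1 was highest and p53 shRNA replicate 2 lowest in CPM, as for the histidine features. Choosing them by their profile favours that order. Most features over tRNA genes have no such name and were left out of that ranking. With the same measure, added after the values were seen, 10 of the 1727 features with and without a name lay as near as the fifth named one, and 3 of these 10 lie over other tRNA genes. They are the features over the proline gene TRP-TGG1-1 (0.537), over TRG-GCC2-6 (0.602) and over TRV-TAC1-1, TRV-TAC2-1 and TRR-TCT3-2 (0.610). With 4 libraries such a likeness is a description of these samples alone.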

How the data were processed

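The deposited counts are raw and whole, 1 per library and feature, and the authors' annotation gives each feature an RNAcentral identifier with its intervals. Tools named in the submitters' processing notes are bcl2fastq (2.19), BWA (0.7.17) and Subread (1.6.3), with GRCh38 as the build. The sources used here do not state how reads with several matches or features were treated.

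Features were matched to RefSeq tRNA and ribosomal RNA genes (at least 1 shared base, strand ignored) and to GENCODE 29 exons (at least 50% of the length) with bedtools 2.31.1. Groups were compared with the quasi-likelihood test of edgeR 4.0.16 (R 4.3.3, TMM factors, filterByExpr), with Benjamini-Hochberg adjustment over the 2780 features that passed the filter. Each SE belongs to the group difference in mean log2 CPM (prior count 2). Alternatives were DESeq2 1.42.0 (size factors, Wald test), limma 3.58.1 voom, library totals, other filters, a block for the replicate number, a fit without ribosomal features and each library left out. Shares have 95% Wilson intervals. The members, gene lists and naming rule (all 4 members, all histidine genes, the 5 most abundant other tRNA features, 16 processing genes, of which examples are given, and the 5 nearest profiles) were chosen with earlier results of these data known. THG1L, RMRP and HARS1 were named for their role, and TRX-CAT1-8 after its value was seen.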

Additional observations from a re-analysis of the deposited data

How the results depend on the processing

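The 4 histidine features kept a log2 change below 0 in all 48 values under the alternatives, from −4.38 to −2.47, and stayed on the same side of the threshold in 47. The exception was TRH-GTG1-9 in the DESeq2 Wald test (log2 change −3.45, adjusted p = 0.0481). Across the alternatives the adjusted p of the 4 ran from 0.0481 to 0.979. Against 0 features called in the main fit of the whole table (121 higher and 217 lower at an unadjusted p under 0.05), the Wald test called 37, the fit without ribosomal features 20 and the fit with the replicate number as a block 103. None of the 4 was called in the fit without ribosomal features or with the block. With the replicate block their log2 changes lay between −3.61 and −3.44, with adjusted p between 0.0605 and 0.0766. Same-numbered libraries deviated together (Pearson r = 0.395 over 2780 features, which are not independent), but the labels do not say that the numbers mark a shared batch. The log2 ratio of the summed share, −2.88, ran from −3.65 to −2.39 with single libraries omitted, −3.41 on TMM-scaled library sizes, and −0.72 when counts on features over tRNA genes, which contain the 4, were the denominator. With no filter on low counts the median change of all features was 1.38 and those of the 4 lay between −2.59 and −2.47. The difference in copy makeup of TRH-GTG1-5 changed sign without control replicate 1 (−0.37 points) and that of TRH-GTG1-9 without control replicate 2 (−0.32 points) or p53 shRNA replicate 2 (−1.66 points). A library left out leaves 1 in its group, which is then assumed to vary like the other. The cause of these changes was not tested. Depth limits the makeup most in p53 shRNA replicate 2, with 486 counts on the 4 features.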
